A study of Homo sapiens with 8 samples.

Results

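The regions described here are the γH2AX peaks that flank the centromeres of chromosomes 6, 11 and 12 in A2780 cells, a human ovarian carcinoma line. A peak was taken where its midpoint lay between 56 and 64 Mb of chromosome 6, 48 and 57 Mb of chromosome 11, or 33 and 40 Mb of chromosome 12, in coordinates of the human build hg19. This gave 771 of 17789 peaks in the Pt-ttpy list, 850 of 25671 in the cisplatin list and 493 of 9709 in the untreated list, counted over chromosomes 1 to 22 and X. Together these are 2114 of 53169 peaks, or 3.98%. The series asked where in the genome DNA damage lies after 2 platinum drugs. Cells were given Pt-ttpy at its own IC80 for 96 hours, cisplatin at its own IC80 for 96 hours, or no drug, and each of these groups had 2 samples. Both samples of a group are tied to the same deposited peak list, so each condition was treated as a single unreplicated sample and conditions were compared without a test. Input chromatin of untreated cells was also sequenced and was not analysed here. Read depth is unknown from the lists.

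γH2AX is the histone variant H2AX phosphorylated by kinases of the DNA damage response in the chromatin around a DNA break. Cisplatin forms crosslinks with DNA bases. Pt-ttpy is a platinum complex that binds G-quadruplexes, which are folded structures of guanine-rich DNA. A human centromere is built on long arrays of alpha satellite repeats, and hg19 holds a large gap in its place. The sequence on either side is rich in satellite fragments and in segmental duplications, where a short read can match several places. Reads here were 50 bases long, from fragments of 200 to 700 bp.

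Each window held a long stretch without a peak in any list, and these stretches are where hg19 holds the centromere gap. On chromosome 6 the stretch ran from 58780160 to 61889601 and measured 3.11 Mb. On chromosome 11 it ran from 51594007 to 54884503 and measured 3.29 Mb. On chromosome 12 it ran from 34855544 to 37859520 and measured 3.00 Mb. The next longest peak-free stretch of the same window was 0.855 Mb on chromosome 6, 1.68 Mb on chromosome 11 and 0.899 Mb on chromosome 12. Positions below are given as distances from the near edge of this stretch, on its short-arm or its long-arm side. Where a position is given relative to the gap, the gap means this peak-free stretch. Its edges are set by the outermost peaks, and their distance from the hg19 gap itself was not measured.

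Both drug lists held more flank peaks than the untreated list on all 3 chromosomes. The chromosome 6 flank had 300 peaks with Pt-ttpy, 347 with cisplatin and 181 without drug. The chromosome 11 flank had 264 with Pt-ttpy, 300 with cisplatin and 185 without drug. The chromosome 12 flank had 207 with Pt-ttpy, 203 with cisplatin and 127 without drug. Over the 3 flanks the Pt-ttpy list held 1.56 times and the cisplatin list 1.72 times the untreated count. Those ratios were 1.85 and 2.69 over the rest of the genome, so in the lists as deposited both drug ratios were lower in the flanks than elsewhere. The flanks took 4.33% of the Pt-ttpy list and 3.31% of the cisplatin list, against 5.08% of the untreated list. Both orders turned when the lists were held to equal sizes of 9709 peaks. The flank ratios over untreated were then 1.09 for Pt-ttpy and 1.06 for cisplatin, with 0.995 and 0.997 elsewhere, and the flanks took 5.54% of Pt-ttpy peaks and 5.39% of cisplatin peaks, against 5.08% of untreated peaks. They also turned with peaks of −log10 q of at least 5, where the flank ratios were 1.61 and 1.76, with 1.42 and 1.67 elsewhere. As deposited, Pt-ttpy had 0.907 times the cisplatin count in the flanks and 0.686 times elsewhere.

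The comparison of counts on chromosome 6 depends on how peaks are counted. Against the untreated list the Pt-ttpy ratio there was 1.66, but 0.929 once peaks within 1 kb were merged and 0.746 when each list was held to its 9709 highest-ranked peaks. The cisplatin ratio there was 1.92, against 1.20 with merging and 0.669 with equal list sizes. With peaks of −log10 q of at least 5 the chromosome 6 ratios were higher, at 2.30 for Pt-ttpy and 2.70 for cisplatin. On chromosome 11 the Pt-ttpy and cisplatin ratios over untreated were 1.43 and 1.62, and on chromosome 12 they were 1.63 and 1.60. Between the drugs, Pt-ttpy over cisplatin was 0.865 on chromosome 6 and 0.880 on chromosome 11. On chromosome 12 it was 1.02, and it fell to 0.950 with merging and 0.978 with peaks of −log10 q of at least 5. With equal list sizes it was 1.12 on chromosome 6 and 1.03 over the 3 flanks, so the order of the drugs there turned with the list size.

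The untreated list also carries a gap in its own numbering. Peak numbers in the flanks ran unbroken in the Pt-ttpy and cisplatin lists, while 196 of 670 numbers were missing from the untreated list, or 29.3%. The missing numbers were 122 of 293 on chromosome 6 (41.6%), 46 of 224 on chromosome 11 (20.5%) and 28 of 153 on chromosome 12 (18.3%). If every missing number had been a peak, the ratios over untreated on chromosome 6 would be 1.02 for Pt-ttpy and 1.18 for cisplatin. They would be 1.18 and 1.34 on chromosome 11, and 1.35 and 1.33 on chromosome 12. Over the 3 flanks they would be 1.15 and 1.27. Over the whole untreated list 8848 of 18049 numbers were missing (49.0%), a larger share than in the flanks. The ratios over the rest of the genome were not recomputed with missing numbers, so their order against the flank ratios is not settled. No source used here explains these absences, and their part in the counts was not tested.

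**Figure D1:**
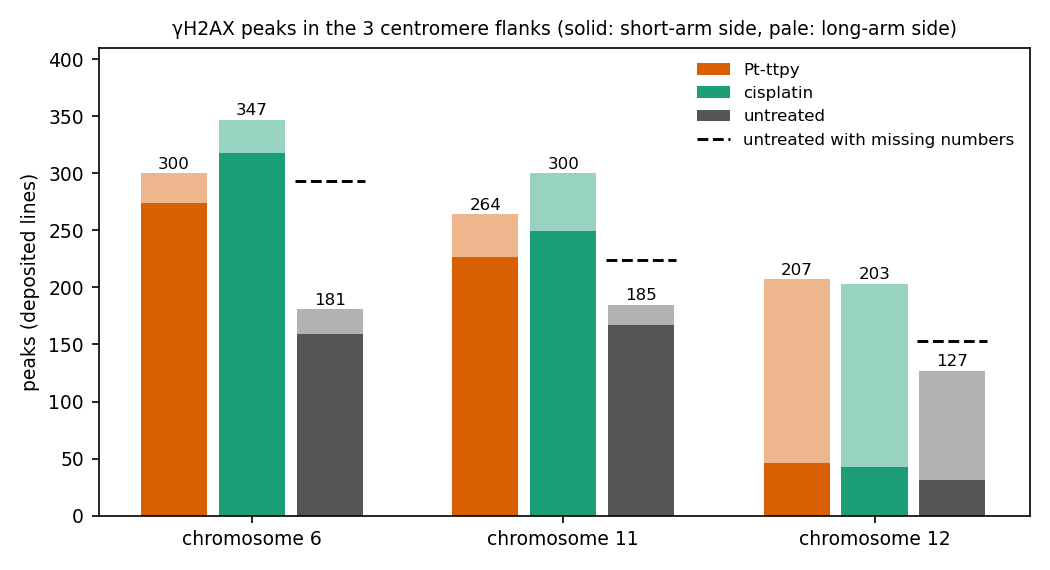
Number of γH2AX peaks in each centromere flank, with bars for Pt-ttpy, cisplatin and untreated and the short-arm side drawn solid below the pale long-arm side. The dashed line is the untreated count with missing peak numbers added, which reaches 293 on chromosome 6, near the 300 of Pt-ttpy and below the 347 of cisplatin.

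The 3 flanks differed in the side that held their peaks, and each list showed the same side. On chromosome 6 the short-arm side held 274 of 300 Pt-ttpy peaks, 318 of 347 cisplatin peaks and 159 of 181 untreated peaks. On chromosome 11 the short-arm side held 227 of 264 Pt-ttpy, 249 of 300 cisplatin and 167 of 185 untreated peaks. Chromosome 12 was the reverse, with 161 of 207 Pt-ttpy, 160 of 203 cisplatin and 96 of 127 untreated peaks on the long-arm side. As shares these are 77.8% (exact 95% binomial interval 71.5 to 83.3) with Pt-ttpy, 78.8% (72.5 to 84.2) with cisplatin and 75.6% (67.2 to 82.8) without drug. These intervals, like those below, cover counting error only, and neighbouring peaks are not independent. Outside the peak-free stretch the density was 61.3, 71.0 and 37.0 peaks per Mb on chromosome 6 for Pt-ttpy, cisplatin and untreated. It was 46.2, 52.5 and 32.4 on chromosome 11, and 51.8, 50.8 and 31.8 on chromosome 12.

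Within a flank the peaks stood in a few tight clusters with long empty runs between them. Joining peaks of all 3 lists that lay under 100 kb apart gave 23 clusters, of which 11 held at least 10 peaks in 1 list. The 11 large clusters held 750 of 771 Pt-ttpy peaks (97.3%), 822 of 850 cisplatin peaks (96.7%) and 483 of 493 untreated peaks (98.0%). Outside them stood 21 Pt-ttpy, 28 cisplatin and 10 untreated peaks, of which 14, 14 and 10 were shared with another list. The densest 100 kb step of each flank was the same in the 3 lists. On chromosome 6 it lay 1.3 to 1.4 Mb on the short-arm side, with 94 Pt-ttpy, 105 cisplatin and 79 untreated peaks. On chromosome 11 it lay 0.8 to 0.9 Mb on the short-arm side, with 72 Pt-ttpy, 79 cisplatin and 54 untreated peaks. On chromosome 12 it lay 0.2 to 0.3 Mb on the long-arm side, with 69 Pt-ttpy, 69 cisplatin and 46 untreated peaks.

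**Figure D2:**
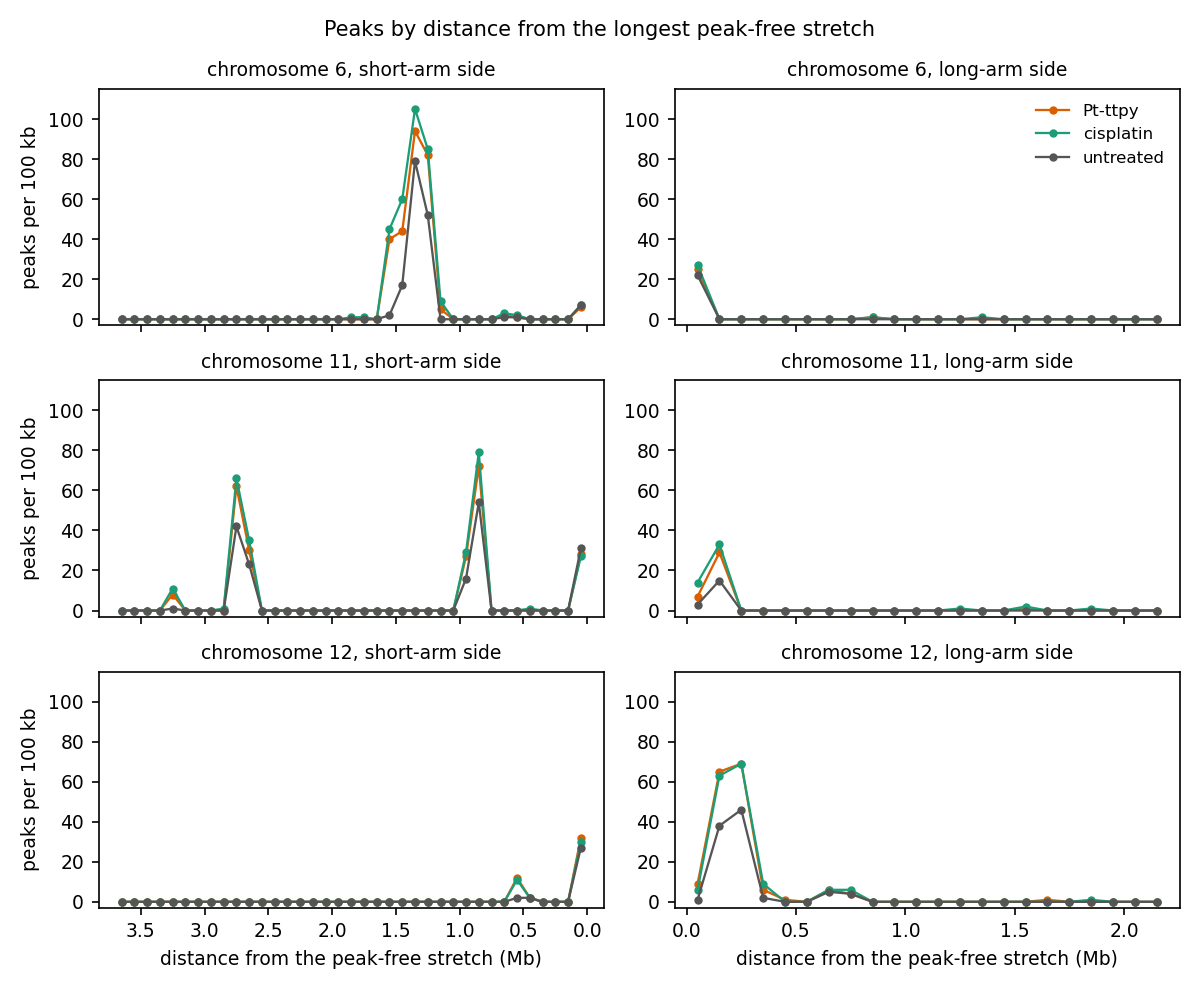
Peaks per 100 kb step (vertical axis) by distance in Mb from the peak-free stretch (horizontal axis), for each flank and side, with a line for Pt-ttpy, cisplatin and untreated. The 3 lines peak in the same step of each flank, at 94, 105 and 79 peaks on chromosome 6, 72, 79 and 54 on chromosome 11, and 69, 69 and 46 on chromosome 12.

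Summed over the 3 flanks, peak counts beside the gap differed less between the lists than those farther out, though not at every edge. Within 30 kb of the peak-free stretch there were 100 Pt-ttpy, 100 cisplatin and 88 untreated peaks, a ratio over untreated of 1.14 for each drug. Beyond 30 kb there were 671 Pt-ttpy, 750 cisplatin and 405 untreated peaks, or ratios of 1.66 and 1.85. With each untreated peak number counted once, another alternative added after the data were seen, the near-edge ratio was 1.22 for each drug. Setting the limit at 20, 50 or 100 kb, chosen after the data were seen, gave near-edge ratios of 1.10, 1.16 and 1.18 for Pt-ttpy and 1.13, 1.15 and 1.22 for cisplatin. Missing untreated numbers were 2 of 29 in the edge cluster chr11:51567243-51594007, 1 of 27 in chr12:34831181-34855544 and 4 of 25 in chr6:61889601-61916300. Over the 3 flanks they were 196 of 670, and in chr6:57207106-57607008, 1173 kb from the gap, 111 of 252. The part of the missing numbers in the contrast of near and far counts was not tested. The fold of a peak is the authors' value over the background of its own list, so it is read here only within a list. Its median was 7.08 near the edge and 4.30 beyond it in the Pt-ttpy list, 8.05 and 4.33 in the cisplatin list, and 11.3 and 5.41 in the untreated list. In each list the peaks beside the gap thus had the higher median fold, and this held in each flank. The long-arm edge of chromosome 12 differed, with medians of 4.17 for Pt-ttpy, 4.07 for cisplatin and 5.11 for the single untreated peak. Farther out on that side, chr12:37990166-38334078 had medians of 4.94, 5.19 and 6.62 in the same order.

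The cluster at the chromosome 11 edge, chr11:51567243-51594007 on the short-arm side, was the most filled of the large clusters. It held 28 Pt-ttpy, 27 cisplatin and 31 untreated peaks. The 31 untreated lines carried 27 distinct peak numbers, so the lists hardly differed in count there. Peaks covered 70.3% of its 26.8 kb span with Pt-ttpy, 73.0% with cisplatin and 58.4% without drug, at median widths of 268, 370 and 320 bp. Its median fold was 10.8, 12.8 and 22.9 in the Pt-ttpy, cisplatin and untreated lists, each the value within its own list. On chromosome 12 the short-arm edge cluster, chr12:34831181-34855544, held 32 Pt-ttpy, 30 cisplatin and 27 untreated peaks. On chromosome 6 the long-arm edge cluster, chr6:61889601-61916300, held 25 Pt-ttpy, 27 cisplatin and 22 untreated peaks. In these 3 clusters the ratios over untreated were 0.903, 1.19 and 1.14 for Pt-ttpy and 0.871, 1.11 and 1.23 for cisplatin, on chromosomes 11, 12 and 6. With each untreated number counted once, the chromosome 11 ratios were 1.04 for Pt-ttpy and 1.00 for cisplatin. Other edges had higher ratios. At the long-arm edge of chromosome 12, chr12:37859520-37882543 held 9 Pt-ttpy, 6 cisplatin and 1 untreated peak. At the long-arm edge of chromosome 11, the cluster chr11:54884503-55027150 reached 143 kb from the edge and held 36 Pt-ttpy, 47 cisplatin and 18 untreated peaks, ratios of 2.00 and 2.61. Within 30 kb of that edge there were 0 Pt-ttpy, 3 cisplatin and 0 untreated peaks.

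The largest cluster, chr6:57207106-57607008, lay 1173 kb short-arm of the gap and held most of the chromosome 6 flank. It had 265 Pt-ttpy, 304 cisplatin and 150 untreated peaks, which is 88.3%, 87.6% and 82.9% of that flank's peaks. Here the drug lists differed from the untreated list less in count than in covered length. Peaks covered 133 kb of the 400 kb span with Pt-ttpy and 143 kb with cisplatin, against 22.9 kb without drug, or 33.3%, 35.8% and 5.71%. The ratios of covered length were 5.84 for Pt-ttpy and 6.26 for cisplatin, while the ratios of counts were 1.77 and 2.03. The median width was 291 bp (95% interval 256 to 331) with Pt-ttpy, 293 bp (267 to 321) with cisplatin and 121 bp (105 to 138) without drug. Folds were low throughout, with a highest value of 5.72 for Pt-ttpy, 6.23 for cisplatin and 6.31 for untreated. Only 44.9% of its Pt-ttpy peaks, 47.0% of its cisplatin peaks and 25.3% of its untreated peaks had a −log10 q of at least 5. In the untreated list 111 of 252 numbers were missing there (44.0%), and 72 of 150 lines had their summit outside the line. The 71 untreated lines with their own number and summit had a median width of 172 bp, against 121 bp for all lines. That selection was added after the data were seen. The untreated covered length counts the deposited lines only, and the part of the missing numbers in it was not tested. Without this cluster, a choice made after seeing the data, the 3 flanks held 506 Pt-ttpy, 546 cisplatin and 343 untreated peaks.

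Drug peaks of this cluster outnumbered untreated peaks more in its outer portion than nearer the gap. Untreated peaks still reached the same outermost 100 kb step as the drug peaks. That step, 1500 to 1600 kb from the gap, held 40 Pt-ttpy, 45 cisplatin and 2 untreated peaks. Between 1.1 and 1.4 Mb there were 181 Pt-ttpy, 199 cisplatin and 131 untreated peaks. Between 1.4 and 1.7 Mb there were 84 Pt-ttpy and 105 cisplatin peaks, against 19 untreated peaks. Of the drug peaks in that outer portion, 8 of 84 with Pt-ttpy and 13 of 105 with cisplatin shared a base with an untreated peak. Over the whole lists 39.5% of Pt-ttpy and 27.3% of cisplatin peaks did so. In the same portion 33 untreated numbers were missing between neighbouring lines.

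Chromosome 11 carried 2 further dense clusters on its short-arm side. The cluster chr11:50639708-50783181, 811 kb from the gap, held 99 Pt-ttpy, 108 cisplatin and 70 untreated peaks. The cluster chr11:48790634-48963945 lay farther out and held 92 Pt-ttpy, 102 cisplatin and 65 untreated peaks. Their ratios over untreated were close to each other, at 1.41 and 1.42 for Pt-ttpy and 1.54 and 1.57 for cisplatin. Covered length was 22.5 and 18.0 kb with Pt-ttpy, 24.0 and 20.9 kb with cisplatin, and 13.4 and 9.35 kb without drug. A small cluster at chr11:48345727-48388893 differed in kind, with 8 Pt-ttpy, 11 cisplatin and 1 untreated peak. None of its drug peaks lay on the untreated peak, and 1 peak of each drug list met the other drug. Its highest fold was 3.52 with Pt-ttpy, 3.81 with cisplatin and 4.21 without drug.

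On chromosome 12 most peaks lay in the long-arm cluster chr12:37990166-38334078, which begins 131 kb from the gap. It held 141 Pt-ttpy, 141 cisplatin and 86 untreated peaks. The drugs matched each other here in covered length, at 29.6 kb with Pt-ttpy and 29.8 kb with cisplatin, against 14.2 kb without drug. Median width was 156 bp in both drug lists and 125 bp in the untreated list. The short-arm cluster chr12:34273074-34407354, 448 kb from the gap, had 14 Pt-ttpy, 13 cisplatin and 4 untreated peaks. Farther out on the long-arm side, chr12:38463941-38594092 had 10 Pt-ttpy, 12 cisplatin and 9 untreated peaks.

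**Figure D3:**
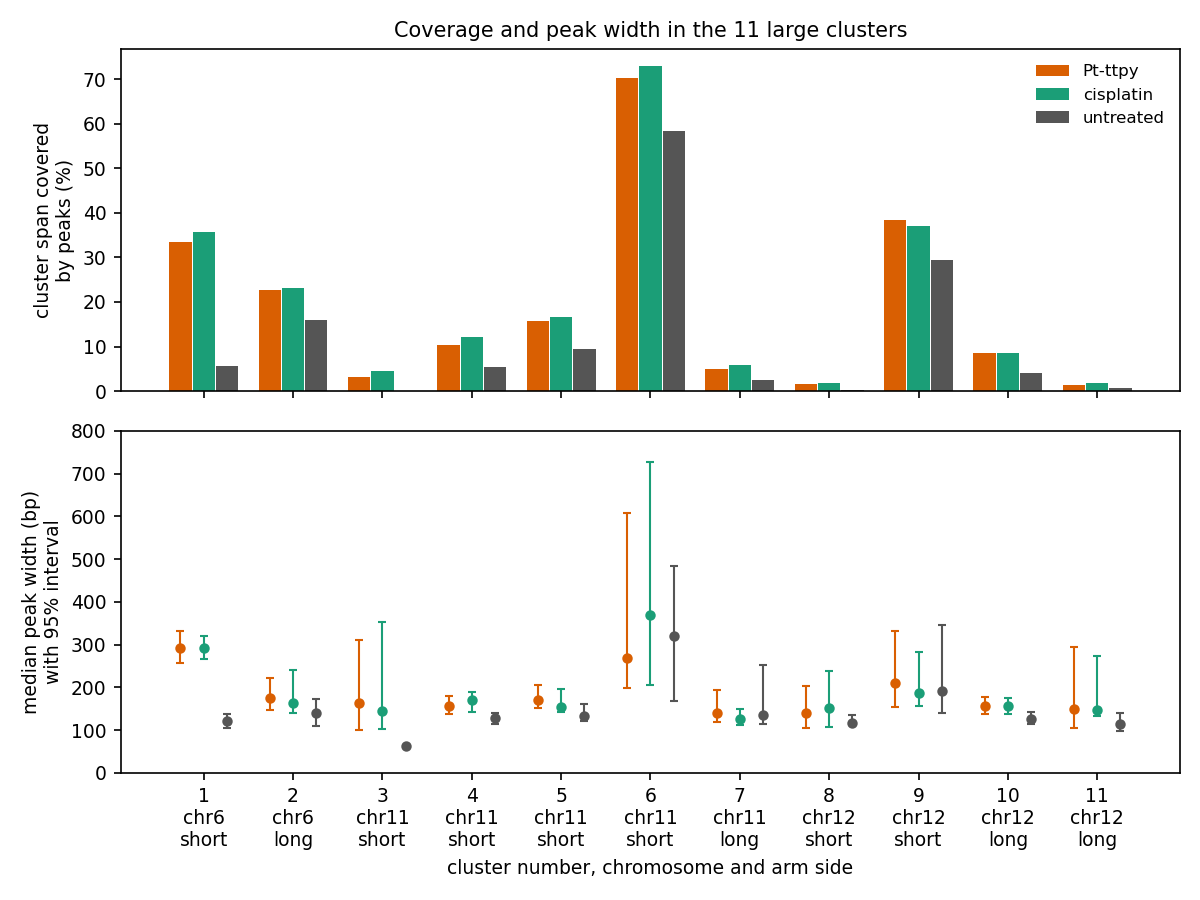
Percent of the span covered by peaks (upper panel) and median peak width in bp with its 95% interval (lower panel) in the 11 large clusters, numbered by chromosome and position, for Pt-ttpy, cisplatin and untreated. In the largest cluster of chromosome 6, number 1, coverage was 33.3%, 35.8% and 5.71%, and the edge cluster of chromosome 11, number 6, was the fullest at 70.3%, 73.0% and 58.4%.

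Flank peaks were short, and their median width over the 3 flanks was larger after either drug than without drug, though not in every cluster. Over the 3 flanks the median width was 195 bp (95% interval 182 to 208) with Pt-ttpy, 196.5 bp (185 to 209) with cisplatin and 135 bp (126 to 142) without drug. In the rest of each list the medians were 184 bp with Pt-ttpy, 168 bp with cisplatin and 167 bp without drug. The difference was largest on chromosome 6, where the medians were 266.5 bp (237 to 307) with Pt-ttpy, 277 bp (250 to 303) with cisplatin and 125 bp (114 to 143) without drug. On chromosome 11 they were 171 bp (155 to 185), 160.5 bp (145 to 185) and 141 bp (129 to 157). On chromosome 12 they were 156 bp (146 to 172), 159 bp (142 to 173) and 135 bp (121 to 145). The intervals of the 2 drugs overlapped on each chromosome. Both also overlapped the untreated interval on chromosome 11, as did that of cisplatin on chromosome 12. In chr11:51567243-51594007 the median was 268 bp with Pt-ttpy, below 320 bp without drug. Cisplatin medians were lower in chr12:34831181-34855544, at 186.5 against 191 bp, and in chr11:54884503-55027150, at 126 against 134.5 bp. In every other large cluster both drug medians were higher. The exceptions depended on the untreated lines used. Untreated lines with their own number and summit, a selection added after the data were seen, had a median of 387 bp in chr11:51567243-51594007. This was above the 370 bp of cisplatin there. In chr12:34831181-34855544 their median was 158 bp, below the 186.5 bp of cisplatin. Widths reached 4558 bp with Pt-ttpy, 3667 bp with cisplatin and 3616 bp without drug. The shortest peak was 101 bp in both drug lists and 1 bp in the untreated list, so the lists did not share a minimum length. Of the untreated lines in the flanks, 104 of 493 had their summit outside the line.

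Peaks that paired one-to-one between lists showed the same order of widths. In 348 pairs of a Pt-ttpy and an untreated peak, the medians were 203.5 bp with Pt-ttpy and 140 bp without drug, and Pt-ttpy was wider in 314 pairs and narrower in 31. In 344 pairs of a cisplatin and an untreated peak, the medians were 220 bp with cisplatin and 139 bp without drug, and cisplatin was wider in 314 and narrower in 28. The median width ratio of Pt-ttpy over untreated was 2.31 in 73 pairs on chromosome 6, 1.19 on chromosome 11 and 1.18 on chromosome 12. For cisplatin over untreated it was 2.92 in 77 pairs on chromosome 6, 1.19 on chromosome 11 and 1.18 on chromosome 12. Untreated lines with their summit outside the line were 74 of 181 on chromosome 6, 17 of 185 on chromosome 11 and 13 of 127 on chromosome 12. Such lines were not left out of the pairs, and their part in the width ratios was not tested. Between the drugs the median ratio of Pt-ttpy over cisplatin was 0.981 in 482 pairs, with Pt-ttpy wider in 203, equal in 7 and narrower in 272.

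The deposited folds differed between the lists in their spacing and in their lowest value. Fold values stood on a grid in each list, and among the lowest values the neighbours lay apart by a median of 0.129 in the Pt-ttpy list, 0.173 in the cisplatin list and 0.301 in the untreated list. The lowest fold of any flank peak was 2.62 with Pt-ttpy, 2.60 with cisplatin and 3.01 without drug. The part of this difference in counts and widths was not tested.

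Nearly all untreated flank peaks lay on a peak of each drug list. They did so on Pt-ttpy in 474 of 493 (96.1%, exact 95% interval 94.0 to 97.7), with 95.1% over the whole untreated list. On cisplatin it was 471 of 493 (95.5%, 93.3 to 97.2), with 96.1% over the whole list. The untreated share was therefore near its genome-wide level. The lowest values were on chromosome 6, with 93.9% on Pt-ttpy and 91.7% on cisplatin. These shares cover the deposited untreated lines only. Of the untreated peak numbers, 29.3% were missing in the flanks and 49.0% over the whole list. Their part in these shares was not tested.

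In the other direction, the share of drug peaks on an untreated peak was higher over the 3 flanks than over the whole of each drug list. Pt-ttpy flank peaks lay on an untreated peak in 403 of 771 (52.3%, 48.7 to 55.8), with 39.5% over the whole Pt-ttpy list. Cisplatin flank peaks did so in 407 of 850 (47.9%, 44.5 to 51.3), with 27.3% over the whole cisplatin list. Chromosome 6 stood below the other flanks, and its Pt-ttpy share was near the whole-list value. Of the Pt-ttpy peaks 37.7% (32.2 to 43.4) met the untreated list on chromosome 6, 64.4% (58.3 to 70.2) on chromosome 11 and 58.0% (50.9 to 64.8) on chromosome 12. Of the cisplatin peaks 35.2% (30.1 to 40.4) did so on chromosome 6, 55.7% (49.8 to 61.4) on chromosome 11 and 58.1% (51.0 to 65.0) on chromosome 12. With equal list sizes the flank and whole-list shares on the untreated list were close, at 68.4% and 66.1% for Pt-ttpy and 70.2% and 64.5% for cisplatin. Asking that at least 50% of a peak be covered, the shares over the 3 flanks were 37.2% for Pt-ttpy and 32.5% for cisplatin. Within 30 kb of the gap 77.0% of Pt-ttpy and 79.0% of cisplatin peaks met the untreated list, and beyond it 48.6% and 43.7%.

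In the lists as deposited the drug lists overlapped each other more in the flanks than over the whole genome. Pt-ttpy peaks lay on a cisplatin peak in 627 of 771 (81.3%, 78.4 to 84.0), with 69.9% over the whole Pt-ttpy list. Cisplatin peaks lay on a Pt-ttpy peak in 635 of 850 (74.7%, 71.6 to 77.6), with 47.8% over the whole cisplatin list. By flank, Pt-ttpy peaks met cisplatin in 77.3% on chromosome 6, 88.6% on chromosome 11 and 77.8% on chromosome 12. Cisplatin peaks met Pt-ttpy in 70.9%, 76.7% and 78.3%. With equal list sizes the flank and whole-list shares were 81.6% and 79.8% for Pt-ttpy on cisplatin, and 83.0% and 78.4% for cisplatin on Pt-ttpy.

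**Figure D4:**
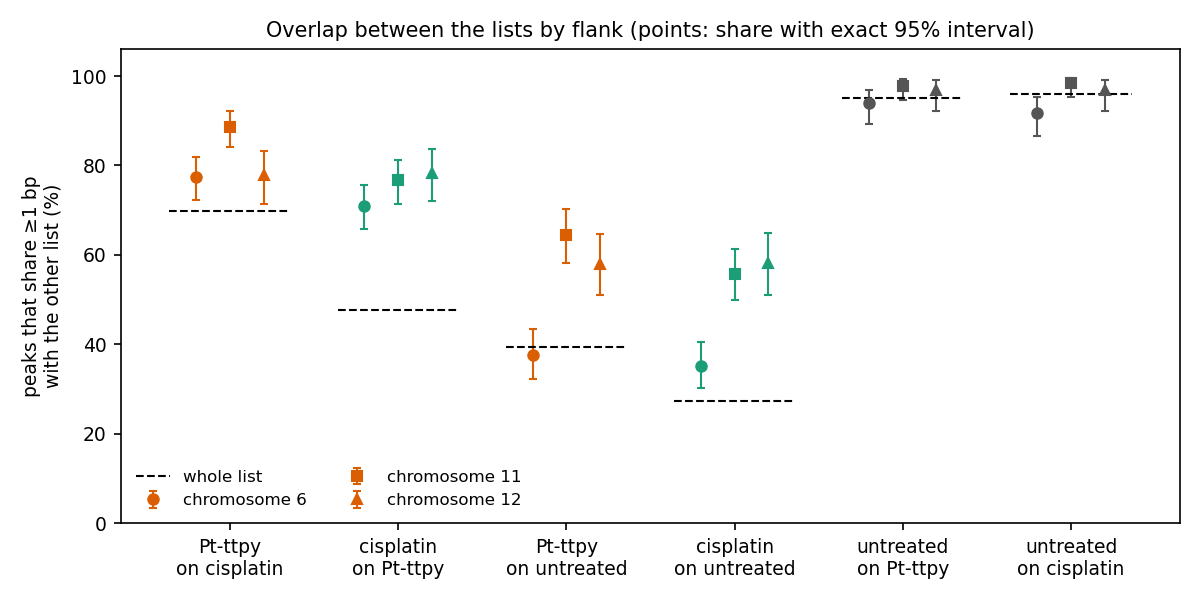
Percent of one list's flank peaks that share at least 1 bp with another list, by flank, with points for chromosomes 6, 11 and 12, bars for exact 95% binomial intervals and a dashed line for the same share over the whole list. Pt-ttpy peaks met the untreated list in 37.7% on chromosome 6, against 64.4% on chromosome 11 and 58.0% on chromosome 12.

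Drug peaks that met the untreated list had higher folds than those that did not. In the Pt-ttpy list the median fold was 5.98 for the peaks on an untreated peak and 3.78 for the others. In the cisplatin list it was 6.40 and 3.81. The weaker drug peaks were thus the ones without a deposited untreated counterpart. Of the 368 Pt-ttpy peaks off the untreated list, 251 lay between untreated neighbours with a missing number. For cisplatin this held for 293 of 443. These counts have no share over the whole lists beside them, where 49.0% of untreated numbers were missing. They therefore cannot be called high or low. A missing number may or may not have stood at these positions, and this was not tested.

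Peaks that shared no base with either other list were rarer in the flanks than over the whole list for both drugs. They numbered 137 of 771 with Pt-ttpy (17.8%, 15.1 to 20.7), with 29.3% over the whole list. With cisplatin they numbered 209 of 850 (24.6%, 21.7 to 27.6), with 51.4% over the whole list. With equal list sizes the flank and whole-list shares were 14.5% and 16.3% with Pt-ttpy, and 13.6% and 18.2% with cisplatin. In the untreated list 9 of 493 stood alone (1.83%), with 1.78% over the whole list. By flank the Pt-ttpy peaks standing alone numbered 66 on chromosome 6, 29 on chromosome 11 and 42 on chromosome 12. The cisplatin peaks standing alone numbered 100, 69 and 40. They were weak in each list, with a median fold of 3.39 and a highest of 5.46 with Pt-ttpy, 3.46 and 5.54 with cisplatin, and 4.21 and 4.81 without drug. The strongest Pt-ttpy peak standing alone on chromosome 12 was chr12:34831181-34831292, 112 bp wide with a fold of 5.46. The strongest cisplatin peak standing alone on chromosome 6 was chr6:57463275-57463644, 370 bp wide with a fold of 5.54.

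Peaks that met the other drug list and no deposited untreated peak numbered 231 of 771 in the Pt-ttpy list (29.96%, 26.7 to 33.3), near the 31.2% over the whole list. In the cisplatin list they numbered 234 of 850 (27.5%, 24.6 to 30.7), with 21.2% over the whole list. Because untreated peak numbers are missing, these counts do not show that no peak was called there without drug. On chromosome 11 the strongest by Pt-ttpy was chr11:50677484-50677770, with a fold of 6.62, facing a cisplatin peak with a fold of 4.67. The strongest there by cisplatin was chr11:50737179-50737321, with a fold of 7.62, facing a Pt-ttpy peak with a fold of 5.85. On chromosome 12 the strongest by Pt-ttpy was chr12:38082030-38082301, with a fold of 6.37, facing a cisplatin peak with a fold of 9.52. On chromosome 6 an isolated pair stood on the long-arm side, 881 kb from the gap. It was chr6:62770999-62771130 with Pt-ttpy, with a fold of 5.46, and chr6:62771018-62771130 with cisplatin, with a fold of 4.50.

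The strongest peaks of the flanks lay at the edge of the gap in all 3 lists, and were present without drug. On chromosome 6 the top peak was chr6:58775340-58779897 with Pt-ttpy (4558 bp, fold 26.3), chr6:58776202-58779868 with cisplatin (3667 bp, fold 35.1) and chr6:58776208-58779823 without drug (3616 bp, fold 60.4). Each had the highest fold of its whole list and was the widest peak of its flank. The Pt-ttpy peak spanned 3 cisplatin and 2 untreated peaks. On chromosome 11 the top peaks began within 3 bases of each other, at chr11:51579243-51581149 with Pt-ttpy (1907 bp, fold 26.1), chr11:51579246-51579690 with cisplatin (445 bp, fold 35.1) and chr11:51579245-51579692 without drug (448 bp, fold 58.0). The Pt-ttpy peak joined what the cisplatin and untreated lists each gave as 2 peaks. On chromosome 12 the top peak had nearly the same bounds in each list, at chr12:34841405-34841662 with Pt-ttpy (fold 19.7, rank 225), chr12:34841397-34841659 with cisplatin (fold 23.7, rank 223) and chr12:34841405-34841656 without drug (fold 37.6, rank 216).

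The flanks thus contributed to the head of each list, through chromosomes 6 and 11. Among peaks tied at the list's highest −log10 q, the flanks held 4 of 36 with Pt-ttpy, 2 of 27 with cisplatin and 1 of 18 without drug. Among the first 100 ranks, ties included, they held 8 of 105, 9 of 103 and 9 of 100 peaks. None of these was on chromosome 12. The widest chromosome 11 peaks were chr11:51590347-51593253 with Pt-ttpy (2907 bp), chr11:51590348-51594007 with cisplatin (3660 bp) and chr11:51568502-51570480 without drug (1979 bp). The widest chromosome 12 peaks were chr12:34833335-34834352 with Pt-ttpy (1018 bp), chr12:34833305-34834369 with cisplatin (1065 bp) and chr12:34837432-34838105 without drug (674 bp). These too lay within 30 kb of the gap. Beyond 30 kb the highest folds were 18.9 with Pt-ttpy, 23.4 with cisplatin and 34.0 without drug.

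**Figure D5:**
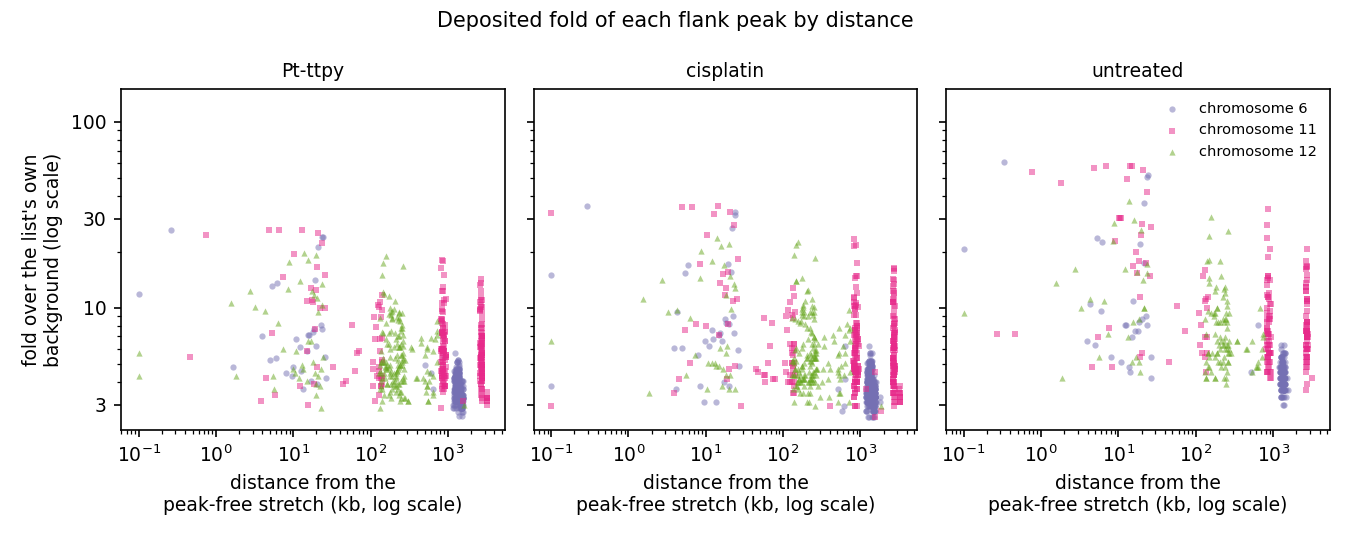
Deposited fold of each flank peak over its own list's background (log axis) by distance in kb from the peak-free stretch (log axis, peaks nearer than 0.1 kb drawn at 0.1), in panels for Pt-ttpy, cisplatin and untreated. In each list the highest folds, 26.3, 35.1 and 60.4, lie within 30 kb, and the dense chromosome 6 cluster beyond 1000 kb stays at or below 5.72, 6.23 and 6.31.

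Genes could not be assigned to these hg19 peaks, and the RefSeq annotation of GRCh38.p14 was used only for gene order. Genes were counted outward from a gene-free stretch of that build, whose edges need not match those of the peak-free stretch. The arm sides given for genes are those of GRCh38.p14. They were not checked against hg19, where a gene may stand on the other side. Among the 25 nearest on each side, the chromosome 11 flank had olfactory receptor genes and pseudogenes, 10 on the short-arm and 22 on the long-arm side. These encode odorant receptors of the nose, or are their decayed copies. Chromosome 6 had PRIM2, a primase subunit that primes DNA synthesis, on the short-arm side and its pseudogene PRIM2BP on the long-arm side. Chromosome 12 had ALG10 on the short-arm and ALG10B on the long-arm side, a pair of glucosyltransferases of protein N-glycosylation. Counted outward on its own side, PRIM2 was gene 21, PRIM2BP gene 1, ALG10 gene 7 and ALG10B gene 11. Pseudogenes made up 5 of 25 on the short-arm and 15 of 25 on the long-arm side of chromosome 6. They made up 20 of 25 on each side of chromosome 11, and on chromosome 12 they were 12 on the short-arm and 10 on the long-arm side.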

How the data were processed

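γH2AX ChIP-seq of A2780 cells was analysed from 3 deposited peak lists, 1 each for Pt-ttpy, cisplatin and untreated cells. Reads were aligned with BWA 0.7.5 and peaks called with MACS2 2.1.0 on hg19, per the submitters' processing notes. No source used here gives the calling settings, the control or the pooling of replicates. Both drug lists carry an untreated tag in their names. The deposited values of a peak are a fold ratio over background, a −log10 q value, a score equal to 10 times that −log10 q with decimals dropped, and a summit offset. All are the authors' own, and served to rank, filter and describe the peaks of their own list. No p-value was computed, and 0 columns of samples were left unused.

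Peaks on chromosomes 1 to 22 and X were assigned to a flank by midpoint. Overlap meant at least 1 shared base. Shares carry exact Clopper-Pearson 95% intervals and medians exact 95% order-statistic intervals. Regions named are the peak with the highest −log10 q and the widest peak of each flank and list, and the densest 100 kb step. The strongest peaks found in 1 deposited list or in both drug lists only are also named. The code was tested on simulated data. Members, windows and clusters were chosen with earlier results of these data known. Scripts ran under Python 3.11.15 with scipy 1.17.1, pandas 2.3.3, numpy 2.4.6 and matplotlib 3.10.9.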

Additional observations from a re-analysis of the deposited data

How the results depend on the processing

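Of 154 values recomputed under alternative settings, 94 held, 48 moved and 12 changed direction. No paired analysis was possible because both replicates of a group stand in the same list. Intervals cover counting error only, and the spread between cultures is not measured.

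Merging peaks within 1 kb left 65 Pt-ttpy, 84 cisplatin and 70 untreated peaks on chromosome 6, 94, 111 and 85 on chromosome 11, and 76, 80 and 61 on chromosome 12. Median widths became 461, 328 and 271 bp, and 57.9% of Pt-ttpy peaks met the untreated list. On chromosome 6 the ratio over untreated became 0.929 for Pt-ttpy and 1.20 for cisplatin. On chromosome 12 Pt-ttpy over cisplatin became 0.950.

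Peaks with −log10 q of at least 5 numbered 152 with Pt-ttpy, 178 with cisplatin and 66 without drug on chromosome 6. The cisplatin median width became 211 bp. Pt-ttpy on cisplatin became 86.1%, cisplatin on Pt-ttpy 78.7%, and Pt-ttpy over cisplatin on chromosome 12 0.978.

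With each list held to its 9709 highest-ranked peaks, chromosome 6 kept 135 Pt-ttpy and 121 cisplatin peaks. The ratios there became 0.746 for Pt-ttpy over untreated, 0.669 for cisplatin over untreated and 1.12 for Pt-ttpy over cisplatin. Over the 3 flanks cisplatin over untreated became 1.06 and Pt-ttpy over cisplatin 1.03. The cisplatin median width became 210 bp. Overlap became 83.0% for cisplatin on Pt-ttpy, 68.4% for Pt-ttpy on untreated, 70.2% for cisplatin on untreated, 88.8% for untreated on Pt-ttpy and 87.8% for untreated on cisplatin. This setting removes peaks from the drug lists only.

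Asking that at least 50% of a peak be covered gave 74.8% for Pt-ttpy on cisplatin, 68.2% for cisplatin on Pt-ttpy, 37.2% for Pt-ttpy on untreated, 32.5% for cisplatin on untreated and 92.5% for untreated on cisplatin. Allowing 500 bp between peaks gave 92.3%, 86.5%, 65.9%, 62.6% and 98.6% for these pairs in the same order, and 98.8% for untreated on Pt-ttpy.

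The flank ratio over untreated, divided by that in the rest of the list, was 0.847 for Pt-ttpy and 0.640 for cisplatin. In alternatives added after seeing the data it became 1.14 and 1.05 with −log10 q of at least 5, 1.10 and 1.06 with equal list sizes, and 0.465 and 0.306 with merging. Counting each untreated number once, Pt-ttpy over untreated at the short-arm edge of chromosome 11 became 1.04.

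Adding missing untreated numbers gave 293 untreated peaks on chromosome 6, and ratios there of 1.02 for Pt-ttpy and 1.18 for cisplatin. Untreated lines with their own number and summit, an alternative chosen after seeing the data, had a median width of 143 bp. Other causes of these shifts were not tested. The number of large clusters was 11 with gaps of 50 kb and 10 with gaps of 200 kb.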
